A study of Homo sapiens with 6 samples.

Results

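The regions described here are stretches of open chromatin that lay between genes but close to them. They were chosen by position alone: each was found in both deposited peak lists, on one of the 22 autosomes, overlapped no gene interval of any biotype in the RefSeq annotation of hg38, and had the nearest end of a protein-coding gene 1000 to 20000 bp away. There were 12170 of them among 119583 shared autosomal regions, a share of 10.2% (exact binomial 95% interval 10.01 to 10.35%, which covers counting error only). Below they are called near intergenic regions.

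ATAC-seq, in which the transposase Tn5 cuts accessible DNA and attaches sequencing adapters to it, was done on hTERT-RPE1, a human retinal pigment epithelial cell line made immortal with telomerase. All 6 libraries came from cells of wild-type genotype with no treatment named, and their titles place 3 libraries in each of the sets R1 and R2. Each set was deposited as 1 list of peaks, with 139657 autosomal peaks in R1 and 131287 in R2. Because a list pools its libraries, no spread between libraries could be computed, no test was made, and the intervals below cover counting error only; what separates R1 from R2 is not stated in the labels.

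Open chromatin between genes holds enhancers, insulators and other elements that bind transcription factors and displace nucleosomes. An enhancer can act on a gene at a distance and on either side of it, and the nearest gene is often but not always the one it acts on. Signal-dependent and lineage factors such as AP-1, TEAD and RUNX bind mostly at such sites, whereas factors such as SP/KLF and NFY are frequent at promoters. In the text below a gene named beside a region is its nearest protein-coding gene and nothing more.

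Sequence could be read for a small subset. The RefSeq promoter table of GRCh38.p14 gives the 300 bases around the start of a gene, 250 before and 50 after, and 22 near intergenic regions reached into the window of a noncoding RNA whose own interval they did not overlap. All 22 of these genes were long noncoding RNAs. The stretches that follow are the part of the window inside the open region, 5′ to 3′ on the strand of the noncoding gene, and are 5 of the 8 with at least 200 bases, picked after their values were seen to show strong and weak regions with and without matches. Capitals mark letters of a searched motif in either orientation. The region near WDR64 held a TEAD match and a RUNX match that overlap by 2 letters (LOC105373231, chr1:241817640-241817863, plus strand), and the region near VPS13C held a RUNX and a CATGTG match (LOC124903501, chr15:61834445-61834684, plus strand). The region downstream of RAD51B held 1 AP-1 match, 1 RUNX match, 1 CACGTG and 2 CATGTG (RAD51B-AS1, chr14:68685461-68685690, minus strand). The region near ZSWIM4 held 3 SP/KLF matches and 1 CATGTG (MIR23AHG, chr19:13842919-13843168, minus strand), and the region near SCGB1A1 held none (LOC102723765, chr11:62427875-62428074, minus strand).
LOC105373231: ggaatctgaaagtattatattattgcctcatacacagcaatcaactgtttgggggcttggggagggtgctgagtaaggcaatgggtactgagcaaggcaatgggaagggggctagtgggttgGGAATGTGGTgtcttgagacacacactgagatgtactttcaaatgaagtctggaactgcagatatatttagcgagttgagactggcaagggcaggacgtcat
LOC124903501: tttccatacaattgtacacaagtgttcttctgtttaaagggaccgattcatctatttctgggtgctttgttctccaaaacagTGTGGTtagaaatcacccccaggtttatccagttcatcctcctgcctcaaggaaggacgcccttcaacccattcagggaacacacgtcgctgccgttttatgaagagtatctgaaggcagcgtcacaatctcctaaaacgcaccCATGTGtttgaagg
RAD51B-AS1: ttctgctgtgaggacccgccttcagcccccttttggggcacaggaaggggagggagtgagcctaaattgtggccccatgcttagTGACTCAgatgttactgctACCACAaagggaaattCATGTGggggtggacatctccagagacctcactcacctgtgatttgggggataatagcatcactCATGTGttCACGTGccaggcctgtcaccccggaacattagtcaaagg
MIR23AHG: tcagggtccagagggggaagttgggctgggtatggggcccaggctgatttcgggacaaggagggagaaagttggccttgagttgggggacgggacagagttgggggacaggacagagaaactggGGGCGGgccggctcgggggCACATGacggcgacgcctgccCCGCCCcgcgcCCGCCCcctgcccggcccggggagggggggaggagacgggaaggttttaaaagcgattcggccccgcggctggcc
LOC102723765: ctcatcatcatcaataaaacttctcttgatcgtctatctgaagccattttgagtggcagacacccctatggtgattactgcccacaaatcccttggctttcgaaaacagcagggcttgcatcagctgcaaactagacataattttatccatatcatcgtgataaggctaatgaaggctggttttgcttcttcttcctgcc

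The fold enrichment of a peak over its local background, as the authors deposited it, ran in the same order as these stretches are printed. It was 9.35 in R1 and 7.93 in R2 for the region near WDR64, 6.88 and 6.38 near VPS13C, 3.51 and 3.24 near RAD51B, 1.69 and 1.82 near ZSWIM4, and 1.66 and 1.58 near SCGB1A1. The R1 summit, the point of highest signal, lay inside the promoter window in 1 of the 22 regions, the weak one near SCGB1A1, and the R2 summit in 3, near SCGB1A1, ZSWIM4 and MMP17. In the others the window covered a flank of the region.

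Letters were searched over the whole 300 base windows on both strands, so matches outside the open region count too. The 22 windows all belong to long noncoding RNAs, while the windows they are set against include those of protein-coding genes. Shares over windows of long noncoding RNAs alone were not computed, and the part of biotype in the differences was not tested. AP-1 (TGACTCA) was in 3 of the 22 windows, 13.6%, against 4.71% of 18113 windows that overlapped any shared region and 4.93% of all 33558 autosomal windows. RUNX (TGTGGT) was in 5 windows, 22.7%, against 9.97% and 13.1%, and the bHLH letters CATGTG were in 6, 27.3%, against 7.39% and 11.1%. TEAD (GGAATG) was in 4, 18.2%, against 11.9% and 14.1%. The promoter letters went the other way: SP/KLF (GGGCGG) was in 5 windows, 22.7%, against 65.9% and 45.0%, and NFY (CCAAT) was in 4, 18.2%, against 34.0% and 34.4%. The OTX/CRX letters TAATCC and the bHLH letters CACGTG were in 1 window each, 4.55%, against 4.67% and 6.37% for the first and 9.06% and 7.15% for the second. CREB/ATF (TGACGTCA) was in none, against 2.88% and 1.86%, and CEBP (TTGCGCAA) in none, against 0.193% and 0.155%. Base composition moved with these shares. The median GC content was 49.3% in the 22 windows, 65.0% in windows of shared regions and 58.7% in all windows; its part in the shares was not tested. A match is a run of letters and not a bound site, and 22 windows of flanking sequence do not stand for the 12170 regions.

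A near intergenic region was typically narrow and stood about 5-fold above its local background. The median width was 784 bp (quartiles 561 and 1029, range 220 to 3763), and together the regions covered 10.2 Mb. Regions over 20 kb from a gene had a median width of 753 bp, regions in gene bodies 800 bp and regions at most 1000 bp from either end of a protein-coding gene 1376 bp (gene ends below). Of the near intergenic regions, 11993 (98.5%) were made of exactly 1 peak of each list, against 97.4% of all shared regions. The R1 and R2 summits were a median of 35 bp apart and within 100 bp of each other in 80.4%. Over all shared regions these values were 37 bp and 79.7%.

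Fold enrichment belongs to single peaks, so it is used here only to describe and rank peaks within a list. The median fold of the near intergenic regions was 5.36 in R1 (quartiles 3.47 and 8.09, range 1.42 to 18.7) and 5.13 in R2 (quartiles 3.30 and 7.80, range 1.44 to 20.9). It was 5.93 and 5.61 for intergenic regions over 20 kb from a gene, 6.65 and 6.70 at gene ends, 5.43 and 5.17 in gene bodies, and 5.71 and 5.52 over all shared regions. Near intergenic regions therefore sat close to gene-body regions and below distant intergenic ones in both lists.

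At the strong end, 960 near intergenic regions, 7.89% (7.42 to 8.38%), were in the strongest 10% by fold of both lists, against 9.08% of all shared regions. The limit was a fold of 10.3 for R1 and 10.1 for R2. The share was 11.1% for intergenic regions over 20 kb from a gene, 10.6% at gene ends and 7.75% in gene bodies. At the weak end, 5370 regions, 44.1%, were below the median fold of both lists, against 39.7% of all shared regions, 43.3% of those in gene bodies, 37.3% of distant intergenic regions and 28.6% of those at gene ends. The plot of ranks shows a nearly flat profile above the weakest ranks for near intergenic and gene-body regions.

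**Figure D1:**
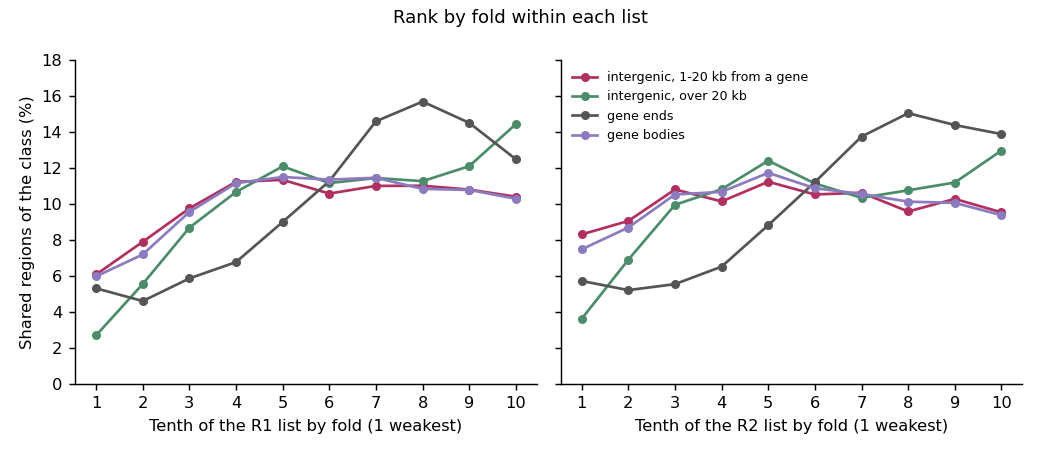
Share of the shared regions of each class (y axis, %) in each of 10 equal steps of the R1 list (left) and the R2 list (right) by deposited fold enrichment (x axis, 1 weakest to 10 strongest). Lines join the steps of a class: near intergenic regions run close to gene-body regions, while intergenic regions over 20 kb from a gene have their lowest share in step 1 and their highest in step 10, where gene ends are above them in R2 but not in R1.

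Fold sets the signal against a local background, and the 2 parts can be separated. The count over the summit (the pileup) and the background were recovered from the deposited fold and p-value, a relation inferred from the values. The counted units are called fragments here, but whether fragments, reads or cuts were counted is not given. The median pileup of near intergenic regions was 85 fragments in R1 and 79 in R2, above the 70 and 65 of distant intergenic regions, close to the 78 and 73 of gene bodies, and below the 241 and 257 of gene ends. Their median background was 12.9 and 12.4 fragments, against 9.24 and 8.92 for distant intergenic regions. By pileup the order of the intergenic classes changed: 605 near intergenic regions, 4.97%, were in the strongest 10% of both lists, against 3.15% of distant intergenic regions, 43.1% of gene ends and 10.03% of all shared regions.

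The 2 lists ranked these regions alike. Across the 12170 regions the folds of R1 and R2 had a Spearman correlation of 0.961, as a description over regions that share cell line and processing. Over all shared regions it was 0.960. The percentile of a region in R1 and in R2 differed by a median of 4.76 points, and by at most 10 points in 9632 regions (79.1%). Over all shared regions the median difference was 4.73 points, and 79.2% differed by at most 10 points, so this agreement was not particular to the class. The region 16440 bp upstream of VANGL1, a planar cell polarity gene, went from 2.58 (R1) to 5.12 (R2) in fold, and the region 3402 bp downstream of SCML4 had 5.04 and 2.62; these 2 differed most in each direction and were chosen after their values were seen. Their pileups were 22 and 44 fragments near VANGL1, and 44 and 22 near SCML4. Of 15667 regions at this position in either list, 77.7% (77.0 to 78.3%) were shared, against 78.3% of those in gene bodies, 81.3% of distant intergenic regions, 90.5% of those at gene ends and 80.7% of all regions.

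The regions were spread over the whole distance range. The median distance to the gene was 7884 bp (quartiles 4008 and 12938), with 1158 regions at 1 to 2 kb, 2721 at 2 to 5 kb, 3602 at 5 to 10 kb and 4689 at 10 to 20 kb. Fold was higher further from the gene. Its median was 4.48 in R1 and 4.24 in R2 at 1 to 2 kb, 4.76 and 4.54 at 2 to 5 kb, 5.51 and 5.34 at 5 to 10 kb, and 5.86 and 5.59 at 10 to 20 kb. The share in the strongest 10% of both lists went from 4.84% (3.67 to 6.23%) through 5.73% and 8.0% to 9.81% (8.97 to 10.7%). Width hardly moved, with medians of 777, 777, 787 and 789 bp. The median background in R1 was 16.3, 16.6, 12.2 and 11.3 fragments in the same order, and the median pileup 90, 100, 81 and 79; the part of the background in the trend was not tested.

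The distance limits cut through a continuous set of regions. Just inside the lower limit were regions 1001 bp from PEAR1 (fold 2.98 in R1 and 2.75 in R2) and from H3-3B (1.94 and 1.65), and just outside it regions 998 bp from SKI (3.32 and 2.04) and TMEM239 (7.50 and 7.04). Just inside the upper limit were regions 19999 bp from COPG1 (3.05 and 2.74) and 19995 bp from FRMD5 (6.65 and 6.28), and just outside it was a region 20003 bp from PPP2R5E (9.16 and 8.16).

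Close to the gene, regions were more numerous on the downstream side. The RefSeq promoter table gave the strand of 15101 of the 19126 autosomal protein-coding genes, which placed 9545 regions on a side: 4649 upstream of the start, 48.7% (47.7 to 49.7%), and 4896 downstream of the end. Genes without a strand, left out of the comparisons of sides and open starts, included many on chromosome 8, among them TRIB1 and TACC1. Within 1 to 2 kb there were 330 upstream and 582 downstream regions, and within 2 to 5 kb 854 and 1248. Beyond that the order turned, with 1490 upstream and 1341 downstream at 5 to 10 kb and 1975 and 1725 at 10 to 20 kb.

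Counts depend on how much gene-free sequence lies at each distance, so they were divided by it. With every shared region counted at its midpoint, the density upstream was 44.5 regions per Mb of gene-free sequence at 1 to 2 kb, 39.9 at 2 to 5 kb, 55.4 at 5 to 10 kb and 49.6 at 10 to 20 kb. Downstream it was 75.7, 66.1, 55.7 and 52.2 per Mb. For comparison, the first 1000 bp held 219 per Mb upstream, where promoters lie, and 67.5 downstream, and the stretch from 20 to 50 kb held 43.8 and 41.0. Upstream of genes a sparse stretch at 1 to 5 kb thus lay between the promoter and denser sequence beyond it, and downstream the density was lower at each step from 1 kb outwards. None of these differences was tested.

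**Figure D2:**
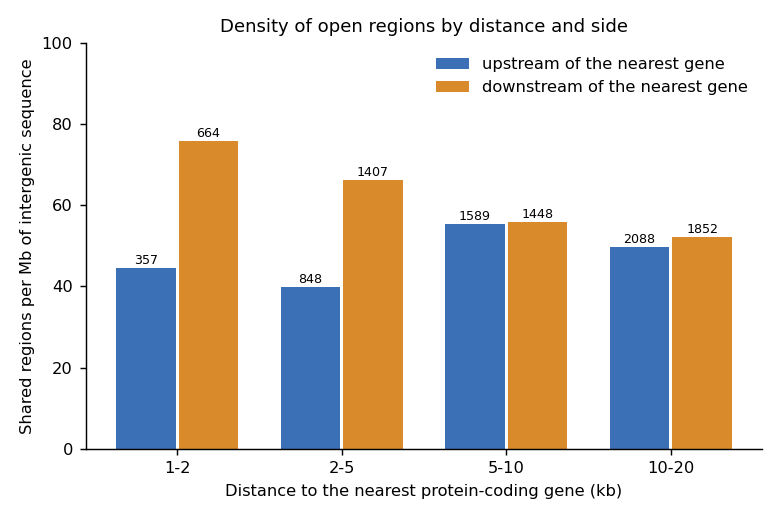
Shared regions per Mb of gene-free sequence (y axis) by distance to the nearest protein-coding gene (x axis, kb), for the upstream and the downstream side of genes whose strand is known. The number over each bar is its count of region midpoints: the bars at 1 to 5 kb are lower upstream than downstream, and those from 5 kb on differ less.

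The upstream regions at 1 to 5 kb were narrower than the downstream ones, with a higher signal over a higher background. At 2 to 5 kb the median width was 669.5 bp upstream and 835 bp downstream, and the median fold 4.26 against 5.30 in R1 and 3.98 against 5.09 in R2. Their pileup was nevertheless higher upstream, 122 against 83.5 fragments in R1 and 114.5 against 78 in R2. Their background was higher as well, 25.3 against 13.4 in R1 and 25.2 against 12.9 in R2. From 5 kb on the medians of both sides were closer, with a median fold in R1 of 5.64 upstream and 5.40 downstream at 5 to 10 kb and of 5.95 and 5.71 at 10 to 20 kb. Of the upstream regions, 3.40% (2.29 to 4.84%) at 2 to 5 kb and 10.3% (8.77 to 11.9%) at 5 to 10 kb were in the strongest 10% by fold of both lists, against 7.77% (6.35 to 9.40%) and 6.94% (5.63 to 8.43%) downstream.

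**Figure D3:**
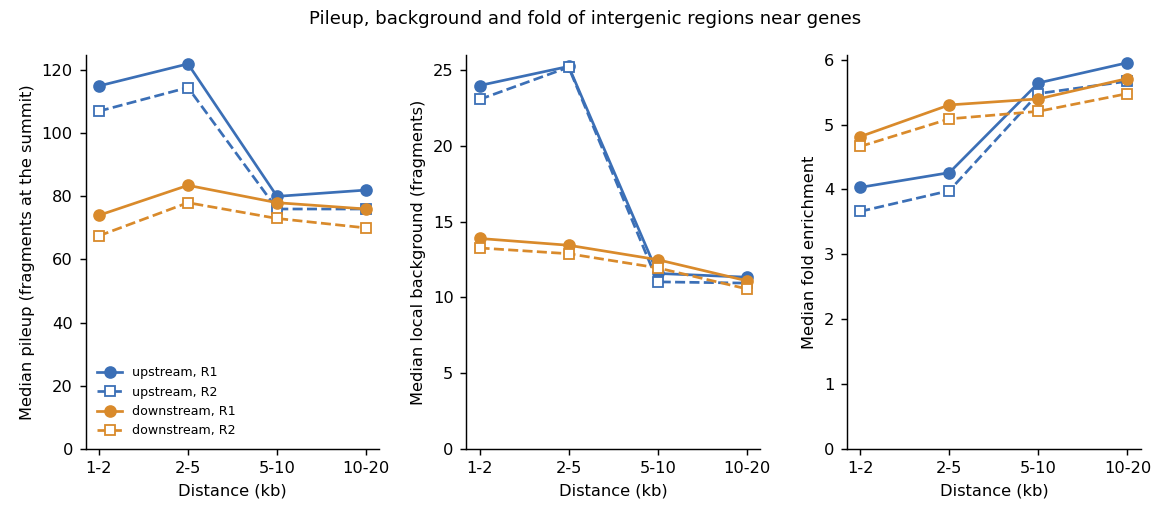
Median pileup (left, fragments at the summit), median local background (middle, fragments) and median fold enrichment (right) of near intergenic regions by distance to the gene (x axis, kb) and side, in R1 (filled circles) and R2 (open squares). Upstream regions at 1 to 5 kb have the highest pileup and background and the lowest fold, and the medians of both sides are closer beyond 5 kb.

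These values moved with whether the gene's own promoter was open. A start was called open when its promoter window overlapped a shared region. At 1 to 5 kb upstream of an open start there were 38.7 regions per Mb (741 midpoints), with median folds of 3.70 (R1) and 3.47 (R2), a pileup of 144 and 136, and a background of 36.5 and 36.7; 8 of them, 1.08%, were in the strongest 10% of both lists by fold. At the same distance upstream of a start that was not open there were 45.7 per Mb (464), with a fold of 5.11 and 5.0, a pileup of 77 and 72, a background of 13.3 and 12.7, and 5.60% among those strongest 10%. Downstream at 1 to 5 kb the density was 79.6 per Mb at genes with an open start (1626) and 46.2 at the others (445). At 5 to 20 kb genes with an open start had 60.5 per Mb upstream and 63.1 downstream, and genes without one 35.4 and 34.9. The sparse stretch upstream of genes was thus seen beside open starts, where the density at 1 to 5 kb was below that at 5 to 20 kb, and not beside starts that were not open. Regions that overlap the promoter itself are joined to it and are no near intergenic regions; the part of this joining and of the promoter's signal in the background was not tested.

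Density was close to even between kinds of gaps. It was 56.2 per Mb between the ends of convergent genes (1814 midpoints), 52.6 between genes in tandem (4618), 49.8 between the starts of divergent genes (2035), and 56.0 where a strand was not known (4586). Chromosomes differed more. Density was highest on chromosomes 22 (74.0 per Mb from 309 midpoints), 17 (68.9, 713 midpoints) and 10 (64.6, 746 midpoints), and lowest on 21 (39.4, 130 midpoints), 13 (39.9, 237 midpoints) and 18 (43.0, 237 midpoints). The share of shared regions that were near intergenic went from 6.81% on chromosome 13 to 16.7% on chromosome 19, which is dense in genes and where their median distance to a gene was 5158 bp.

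Near intergenic regions often had close neighbours. The next shared region of any class was a median of 4512 bp away and within 5000 bp for 56.1% of them, against 51.5% of all shared regions and 46.5% of distant intergenic regions. Joining near intergenic regions less than 5000 bp apart gave 9407 runs: 7266 single regions, 1666 pairs and 475 runs of at least 3, so that 4904 regions (40.3%) had a partner. Runs were not formed for other classes, so whether 40.3% is high or low for shared regions is not known. The longest runs had 7 regions. One covered 18364 bp downstream of FBN1, the gene of the matrix protein fibrillin-1 (chr15:48388448-48406811), and its best fold was 3.36 in R1 and 3.49 in R2, below the median of the class. The other covered 22818 bp between ARHGEF19 and EPHA2, an ephrin receptor (chr1:16167496-16190313), with a best fold of 7.74 and 7.52.

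The strongest regions by mean percentile over both lists were each made of 1 peak of each list, as were 98.5% of the class. The first lay 3764 bp upstream of GABRR3, a GABA receptor subunit (chr3:98039080-98039902), with folds of 18.7 (R1) and 19.7 (R2) and a pileup of 248 and 260 fragments. The second lay 6458 bp downstream of LEUTX, a homeobox gene known from the early embryo (chr19:39792750-39793604), with a fold of 18.1 and 20.9. The third was 15838 bp downstream of MOXD1 (chr6:132279424-132280216; 18.1 and 18.5) and the fourth 2278 bp downstream of the kinase gene CDKL2 (chr4:75573340-75574217; 18.02 and 18.5). Other strong regions lay near PSG8, IFNB1 and SPP2. A region 11087 bp from the pregnancy glycoprotein gene PSG8 (chr19:42776766-42777605) had folds of 17.0 and 15.6, one 6319 bp downstream of the interferon gene IFNB1 (chr9:21069672-21070784) had 15.9 and 15.7, and one 5899 bp upstream of SPP2 (chr2:234043887-234044802) had 16.3 and 15.9.

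The remaining 3 of the 10 strongest lay near PCMTD2, DLG1 and BARX2. The region 10383 bp downstream of PCMTD2 (chr20:64286610-64287565) had the highest pileup of the 10, 485 and 472 fragments, over a background of 29.3 and 27.9, which gave folds of 16.0 and 16.4. The region 17699 bp upstream of DLG1, a scaffold gene of cell junctions (chr3:197317021-197318084), had 17.2 and 15.3, and the region 10500 bp from the homeobox gene BARX2 (chr11:129363888-129364732) had 16.4 and 15.3. All 10 were 793 to 1113 bp wide, above the class median of 784 bp.

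Width and strength were linked only in part. Across the near intergenic regions the Spearman correlation of mean percentile and width was 0.544, given as a description over 12170 regions of the same lists. The widest region, 3763 bp, lay 18885 bp downstream of CALML3 (chr10:5545657-5549419) and had folds of 4.61 (R1) and 4.46 (R2). It was 198 bp from the long noncoding RNA LOC105376380. The next were 3227 bp wide beside the ribosomal protein gene RPL3 (chr22:39308448-39311674; 4.45 and 4.50) and 3174 bp wide beside CFAP299 (chr4:80305473-80308646; 4.66 and 4.26). All 3 were below the median fold of the class in both lists.

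Some near intergenic regions lay beside genes of other biotypes. Within 1000 bp of a gene of another biotype lay 588 regions (4.83%), of which 320 were beside a long noncoding RNA, 224 beside a pseudogene, 26 beside a transcribed pseudogene, 10 beside a miRNA and 5 beside a snoRNA. Of the 588, 6.97% were in the strongest 10% of both lists, and of the other 11582 regions 7.93%. A gene of another biotype was closer than the protein-coding gene for 3909 regions (32.1%).

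Of the 19126 autosomal protein-coding genes, 6936 (36.3%) were the nearest gene of at least 1 near intergenic region. Of these, 3807 had 1 region, 1795 had 2, 826 had 3, 328 had 4, 120 had 5, 41 had 6 and 19 had 7 or more. Among genes with a known strand, the start was open in 71.2% of all, in 75.4% of those with a near intergenic region (4120 of 5466) and in 68.8% of those without (6628 of 9635). The gene-free sequence 1 to 20 kb away that lay nearest to a gene had a median of 19001 bp for genes with a region and 3755 bp for those without. Among genes with at least 5000 bp of it the start was open in 75.3% of those with a region and 59.2% of those without.

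ATOH8, a bHLH transcription factor, had the most regions, 9, with 5 upstream and 4 downstream. None was in the strongest 10% of both lists. The best, 10560 bp upstream and 2037 bp wide (chr2:85741394-85743430), had folds of 5.99 and 6.39, and the other 8 had folds of 2.01 to 3.68 in R1. TRIB1, a pseudokinase, and SRSF3, a splicing factor, had 8 regions each. The strongest of SRSF3, 17449 bp downstream (chr6:36623050-36624220), had folds of 9.38 and 9.27, and the weakest of SRSF3, 3694 bp downstream, had a fold of 1.94 in R1. The 10 genes described here had regions on both sides, as the map of these genes shows, whereas FBN1, one of the genes with 7 that the tie rule left out, had all of its regions downstream.

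Another 16 genes had 7 regions each, and the 7 of these with the highest mean percentile of their regions, the tie rule used here, were ANXA1, TACC1, LRRC8D, SEMA3C, GUCY2D, IL22 and HAPSTR1. The best region of ANXA1, the gene of the phospholipid-binding protein annexin A1, lay 18749 bp upstream (chr9:73131597-73133115) with folds of 10.2 and 11.2. The best of the secreted guidance factor gene SEMA3C lay 18928 bp upstream (chr7:80941318-80942941) with 10.9 and 11.3. LRRC8D, a subunit of volume-regulated anion channels, had its best region 1296 bp downstream (chr1:89937908-89938757) with 10.1 and 10.7. The best region of IL22, a cytokine gene, lay 5460 bp away (chr12:68259065-68259986) with 13.1 and 13.9, the highest folds among the regions of these 10 genes. The start of GUCY2D, a photoreceptor guanylate cyclase, was not open, and its best region, 11979 bp upstream (chr17:7989870-7990635), had 9.47 and 9.53.

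**Figure D4:**
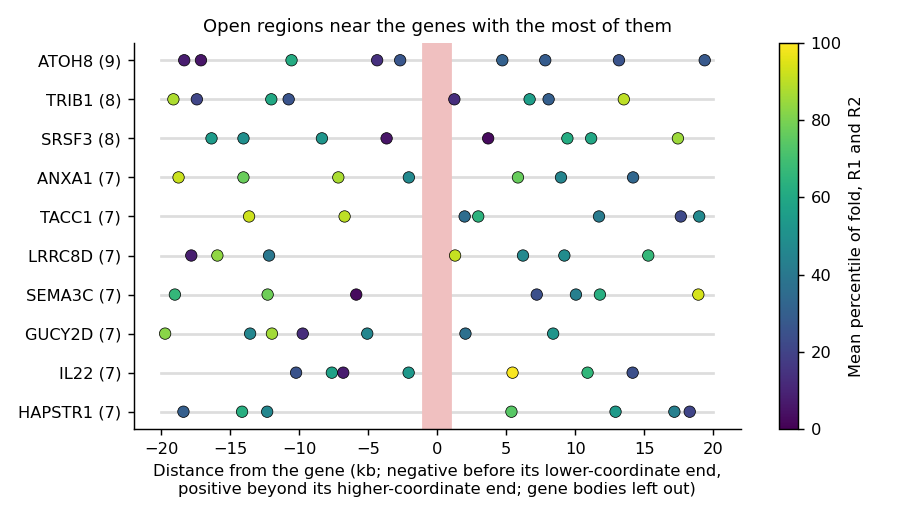
Near intergenic regions of 10 genes with the most of them (ties at 7 regions broken by mean percentile), by distance from the gene (x axis, kb; negative before the lower-coordinate end, positive beyond the higher-coordinate end, gene bodies left out). Each point is 1 region, coloured by its mean percentile of fold over R1 and R2: these 10 genes have regions on both sides, and those of ATOH8 are mostly weak.

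Genes of 16 lists, chosen for the known biology of these cells and of other cell types, were described by the regions that have them as nearest gene, beside 36.3% of all genes with at least 1 region and 50.01 regions per Mb over all genes. Counts of open starts cover genes with a known strand and stand beside the 71.2% of all such genes. A dense list need not hold strong regions. The median of the regions' mean percentile was 51.9 over all genes. It was higher for retinal pigment epithelium genes (63.6), hepatocyte (60.9) and endothelial markers (54.9), and epithelial junction genes (53.0). All other lists were lower, with 40.2 for mesenchymal, 35.9 for cytoskeleton, 34.2 for AP-1 and 33.2 for cell cycle genes. Targets of YAP/TAZ and TEAD respond to cell shape and attachment. They had regions at 18 of 22 genes, 42 in all and 92.9 per Mb, with an open start at 16 of 16. The transcription factor gene TEAD1 itself had 4, the best 19022 bp away (chr11:12963760-12964841) with folds of 11.1 and 9.95. PTPN14, a phosphatase that binds YAP, had 4 upstream, the best at 6049 bp (chr1:214557652-214558709) with 10.6 and 9.34, and CRIM1 had 4, the best with 9.75 and 8.16. ARHGEF17 had none.

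Mesenchymal and matrix genes, with an open start at 12 of 14, had regions at 16 of 23 genes, 47 in all. Their density of 106 per Mb was the highest of the 16 lists. FBN1 had 7, all downstream and with a best fold of 3.36 and 3.42 by mean percentile. SPARC, a collagen-binding matrix protein, had 6, with the best 19726 bp upstream (7.57 and 7.21), and TGFBI, a matrix protein induced by TGF-beta, had 6, with the best 18433 bp downstream (6.62 and 6.64). The collagen gene COL5A1 had none. Cytoskeleton and adhesion genes had 23 regions at 11 of 19 genes, 101 per Mb, with an open start at 15 of 15. The tropomyosin gene TPM1 had 4 (best 8.03 and 7.92), ACTB had 3 (6.81 and 6.02), ITGB1 had 3 (4.91 and 3.91) and ACTN4 had none.

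Growth factor and cytokine genes had 37 regions at 15 of 20 genes, 85.4 per Mb, with an open start at 16 of 16. The cytokine gene LIF had 5 (best 6.72 and 6.28), the EGF receptor ligand gene AREG had 4, all at 11283 to 19400 bp and the best 17753 bp downstream (10.2 and 10.9), and PDGFC had 4 (6.69 and 8.75). BDNF had none. AP-1 and immediate early genes had 25 regions at 12 of 20 genes, 84.9 per Mb, with an open start at 15 of 16. IER3 had 5 (best 6.37 and 4.86), the AP-1 subunit gene FOSL2 had 4, all downstream (3.29 and 4.01), the phosphatase gene DUSP1 had 3 (5.85 and 5.91), and FOSB had none.

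Genes of the cell type of origin gave a mixed picture. Of 13 retinal pigment epithelium and visual cycle genes with a known strand, 10 (76.9%) had an open start, near the 71.2% of all such genes. The list had 9 regions at 6 of 18 genes, 70.3 per Mb. CST3, the cystatin C gene, had 2, the best 3215 bp downstream (chr20:23622540-23623490; 11.6 and 11.4), and RLBP1, a retinoid carrier, had 2, the best 2167 bp downstream (chr15:89206609-89207701; 11.1 and 10.7). RPE65, the isomerase of the visual cycle, had 2 regions upstream, the best at 2908 bp (chr1:68452863-68453803; 8.39 and 8.28), while its start was not open. BEST1 had none. At 1 to 20 kb, 748 bp of gene-free sequence lay nearest to BEST1, less than the median region width of 784 bp. The lack of regions at BEST1 therefore says little about openness.

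Pigment synthesis genes had 8 regions at 3 of 11 genes, 57.2 per Mb, with an open start at 3 of 8 (37.5%, against 71.2% of all). MLPH, a melanosome transport gene, had 4 (best 6.09 and 5.89), TYRP1, an enzyme of melanin synthesis, had 3 upstream, the best at 12174 bp (chr9:12680139-12681210; 10.3 and 9.58) with a start that was not open, SLC24A5 had 1 (4.93 and 4.43) and DCT had none. Eye field and pigment epithelium transcription factors had 24 regions at 11 of 14 genes, 95.4 per Mb, with an open start at 8 of 11. SIX3 had 5 (4.66 and 4.75), TFEC, a relative of MITF, had 4 (8.60 and 8.11), SOX9 had 4 (6.92 and 8.60), and MEIS1 had none. Cell cycle and replication genes, with an open start at 19 of 19, had 16 regions at 8 of 23 genes, 58.5 per Mb. CDK1 had 3 (9.41 and 9.44), RRM2 had 3 (7.52 and 6.39), MKI67 had 3 (4.48 and 3.53) and AURKA had none. At 1 to 20 kb, 0 bp of gene-free sequence lay nearest to AURKA, so its lack of regions says nothing about openness.

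**Figure D5:**
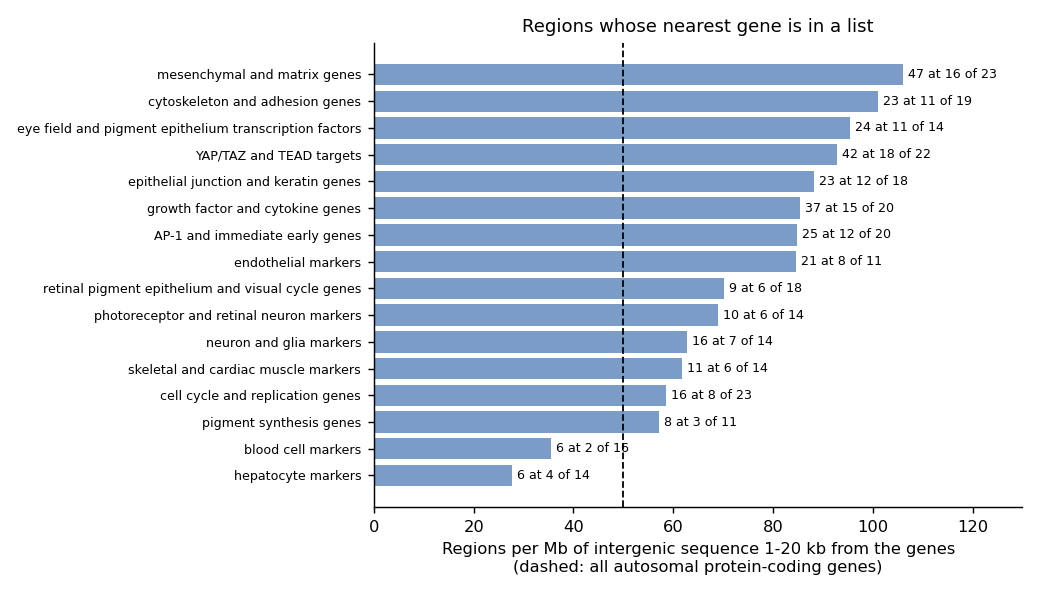
Near intergenic regions per Mb of gene-free sequence 1 to 20 kb from the genes of each list (x axis; bars start at 0), with the number of regions and of genes that have any beside each bar. The dashed line at 50.01 per Mb stands for all autosomal protein-coding genes, and 14 of 16 lists lie above it, those of blood cells and hepatocytes below.

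Genes that mark other cell types were not uniformly bare. Endothelial markers had 21 regions at 8 of 11 genes, 84.7 per Mb, although the start was open at 2 of 6 (33.3%, against 71.2% of all). PECAM1 had 5 (7.96 and 7.39), ERG, an endothelial transcription factor, had 4, the best 17385 bp upstream (chr21:38679169-38680426; 10.2 and 8.07), CDH5 had 3 (7.68 and 7.50) and ESAM had none. At 1 to 20 kb, 0 bp of gene-free sequence lay nearest to ESAM, so its lack of regions says nothing about openness. Epithelial junction and keratin genes had 23 regions at 12 of 18 genes, 88.1 per Mb, with an open start at 5 of 8. EPCAM had 4 (5.28 and 5.37), CLDN4 had 3, all upstream (8.58 and 9.78), KRT19 had 2 (8.06 and 7.76) and CDH1 had none. Photoreceptor and retinal neuron markers had 10 at 6 of 14 genes, 68.9 per Mb, with an open start at 3 of 10. ABCA4 had 4 (8.85 and 8.72), and PRPH2, a protein of photoreceptor outer segments, had 2, the best 3584 bp upstream (chr6:42726182-42727184; 12.3 and 10.6) with a start that was not open. GNGT1 had 1 (8.85 and 9.44) and CALB1 had none.

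Neuron and glia markers had 16 regions at 7 of 14 genes, 62.7 per Mb, with an open start at 3 of 10 (30%, against 71.2% of all). OLIG2 had 6 (10.8 and 10.6), SNAP25 had 3 (9.18 and 9.61), and GAD1, an enzyme of GABA synthesis, had 2, the best 11783 bp downstream (chr2:170872935-170873811; 12.03 and 13.8). AQP4 had none. Skeletal and cardiac muscle markers had 11 at 6 of 14 genes, 61.8 per Mb, with an open start at 3 of 11. MB had 3, TNNT2 had 2, MYOD1 had 2 and ACTA1 had none. The lowest densities were those of blood cell and hepatocyte markers. Blood cell markers had 6 regions at 2 of 16 genes and 35.5 per Mb, with an open start at 2 of 7. Hepatocyte markers had 6 at 4 of 14 genes and 27.8 per Mb, with an open start at 2 of 10. PTPRC, the CD45 gene of leukocytes, held 4 of the 6 blood regions, the best 18948 bp downstream (chr1:198776425-198777340; 11.1 and 10.05) with a start that was not open, and LYZ the other 2 (9.15 and 8.49), while CD14 had none. At 1 to 20 kb, 0 bp of gene-free sequence lay nearest to CD14, so its lack of regions says nothing about openness. Among hepatocyte markers, APOB had 3 (7.19 and 7.20), SERPINA1 had 1 (8.98 and 9.04), FGB had 1 (8.93 and 8.36) and AHSG had none. With 11 to 23 genes in a list, 1 gene can carry much of its density, and no list was tested against the others. At 5 to 20 kb, genes with an open start had 60.5 regions per Mb upstream and 63.1 downstream. Genes without one had 35.4 and 34.9. The part of open starts in the densities of the lists was not tested.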

How the data were processed

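ATAC-seq peaks of 6 hTERT-RPE1 libraries were used as deposited by the authors, in 1 list per set of 3 libraries (R1, R2), on build hg38 per the submitters' processing notes. Each peak has a score, a fold enrichment (a ratio), a −log10 p-value, a −log10 q-value and a summit offset, all as deposited by the authors. Not given in the sources used here are the aligner, the peak caller with its settings, and whether reads were shifted for Tn5.

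Peaks that overlapped by at least 1 bp were joined, and a region with peaks of both lists was shared. Genes came from RefSeq GRCh38.p14 (56756 autosomal genes, 19126 protein-coding), and strands and promoter sequences from its promoter table. A region took the highest fold of its peaks in a list, ranked over all autosomal peaks of that list. Pileup and background were solved from fold = (pileup + 1)/(background + 1) and a Poisson p-value; a whole pileup gave the deposited p within 0.001 on the −log10 scale for 100% of peaks of each list after rounding. The median pileup was 72 in both lists and the background at least 7.93 (R1) and 7.79 (R2), the measure of depth used here. Density is the number of region midpoints over gene-free sequence at the same distance; for gene lists it is regions over the gene-free sequence nearest to their genes.

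Named items were the 10 best regions by mean percentile, the 3 widest, those at the distance limits, the 10 genes with the most regions (ties by mean percentile), up to 3 genes per list and the first without a region, and the 3 chromosomes with the highest and lowest density. The members and lists were chosen with earlier results of these data known. Alternatives were 2 stricter thresholds, another overlap, single lists, other distances and other gene intervals. The planned search for motifs at summits was not run, as no genome sequence was used here. Python 3.11.15, pandas 2.3.3, numpy 2.4.6 and scipy 1.17.1 were used, and the scripts were tested on simulated data. One region at the upper distance limit is not reported here.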

Additional observations from a re-analysis of the deposited data

Results flagged for a closer look

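Regions at the same position outside the main measurement were listed because their number exceeds 3, the limit that a count of 0 allows. No count of 0 was foreseen for them, so passing this limit was certain and is no result. On chromosome X, 350 of 2838 shared regions (12.3%) were 1000 to 20000 bp from a protein-coding gene and overlapped no gene. Their median width was 710 bp and their median fold 5.71 in R1 and 5.30 in R2. Of these 350 regions, 19 were in the strongest 10% of both lists. On the autosomes it was 960 of 12170 near intergenic regions (7.89%) and 9.08% of all shared regions. On the autosomes, 2192 regions at this position were in the R1 list alone, with a median fold of 2.46 and a median width of 303 bp, and 1305 were in the R2 list alone, with 2.50 and 297 bp. The median −log10 q-value of these was 3.8 and 3.54, near the weak end of the lists.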

How the results depend on the processing

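The number of near intergenic regions stayed within 1.5 times 12170 in 7 of 8 alternatives (8975 to 16315) and was 6325 at 2000 to 10000 bp, a narrower range by construction. Their share of the regions was 9.92% at a −log10 q-value of at least 10, 10.4% in R1 alone and 10.4% in R2 alone, 10.6% in either list, 5.29% at 2000 to 10000 bp and 13.6% where only protein-coding intervals were avoided. The median width was 826 bp and 864 bp at a −log10 q-value of at least 5 and 10, 638 bp in R1 alone, 656 bp in R2 alone, 663 bp in either list and 797 bp with protein-coding intervals only. The share in the strongest 10% by fold was 7.32% at a −log10 q-value of at least 10, 8.68% in R1 alone, 8.50% in R2 alone, 6.13% in either list and 7.02% at 2000 to 10000 bp. Ranked by pileup, an alternative chosen after seeing the data, it was 4.97%. By construction, single lists need 1 list and regions joined over 2 lists are wider. The 6.13% in either list is also lower by construction. A region of 1 list alone is counted in its total but cannot be in the strongest 10% of both lists. For the other changes the cause was not tested. No paired analysis was possible because the deposited lists pool the 3 libraries of each set, and no library could be left out for the same reason. The search for AP-1 letters at summits was not run. At this depth a region found in 1 list alone cannot be called absent from the other.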
